A study of Chlorocebus sabaeus with 12 samples.

Results

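FABP6 and 6 of its paralogues, FABP1, FABP2, FABP3, FABP4, FABP5 and FABP7, were followed across the 4 groups of an array study of the bile acid receptor FXR. Every probe whose gene name in the scanner files is one of these symbols was taken, which gave 11 probes for the 7 genes, out of 41000 probes and 30982 names on the array. RNA came from COS-1, a fibroblast-like kidney line of the African green monkey that carries the SV40 large T antigen, and was hybridised to Agilent human whole-genome arrays, so the signal of a probe also depends on how well it matches the monkey transcript. Each group had 3 arrays, 12 in all.

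All cells transiently expressed a mutant of human FXR for 24 h, in which 1 serine is replaced by aspartate (S154D) or by alanine (S154A), and were then treated for 24 h. The 4 groups were S154D cells given CDCA, S154D cells given DMSO, S154A cells given CDCA and S154A cells given DMSO. CDCA is chenodeoxycholic acid, a primary bile acid that binds and activates FXR. The labels state its concentration as 50 mM and that of the DMSO vehicle as 0.1%. That unit could not be checked against the files and may be a slip. Cells with unmutated FXR or with no FXR construct were not analysed here, so each mutant is set against the other mutant, and the share of cells that took up a construct is not given in the sources used here. The labels name no separate cultures for the replicates, so the p-values measure the spread between these arrays, which may be technical. The groups allow 2 questions, what CDCA did in cells of each mutant and how the mutants differed under each treatment.

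Fatty acid binding proteins are small cytosolic proteins that hold a lipid in a barrel-shaped cavity and carry it through the water of the cell. FABP6, the ileal bile acid binding protein, holds bile acids in place of fatty acids, is made by absorptive cells of the ileum and is a classic FXR target, whose promoter binds FXR together with its partner RXR. FABP1 is the liver and FABP2 the intestinal protein, FABP3 is that of heart and muscle, FABP4 that of adipocytes and macrophages, FABP5 that of epidermis and many other cells, and FABP7 that of the developing brain. Bulk RNA was measured, so fewer cells with a transcript and less of it per cell cannot be told apart.

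The probes are 60 bases long. Printed here are 4 of them, which carry the findings and show how far probes of different members share sequence. Coordinates are those of the files, on human build hg17. The FABP6 probe lies at chr5:159591816-159594421 on the plus strand, designed on transcript NM_001445. Its 60 bases are spread over 2606 genomic bases, so it joins exons of the spliced transcript. The main FABP3 probe lies at chr1:31509410-31511359 on the minus strand (NM_004102, 1950 genomic bases). The FABP7 probe lies at chr6:123143275-123143963 on the plus strand (NM_001446, 689 genomic bases), and the FABP1 probe at chr2:88261860-88263308 on the minus strand (NM_001443, 1449 genomic bases). These 3 also cross introns. Written 5′ to 3′, capitals in the FABP6 probe mark bases identical with the FABP3 probe at their best ungapped placement, capitals in the FABP3 and FABP7 probes mark bases that these 2 share, and FABP1 has none marked.
FABP6: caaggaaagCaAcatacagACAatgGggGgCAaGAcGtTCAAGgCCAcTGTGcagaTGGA
FABP3: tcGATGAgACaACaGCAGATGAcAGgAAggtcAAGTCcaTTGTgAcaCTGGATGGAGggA
FABP7: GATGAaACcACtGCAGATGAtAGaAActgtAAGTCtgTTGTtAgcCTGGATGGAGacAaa
FABP1: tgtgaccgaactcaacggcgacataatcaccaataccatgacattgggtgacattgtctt
The FABP6 probe was identical with the FABP3 probe at 28 of the 52 bases they overlapped (53.8%), with no shared run over 5 bases. Its best identity with any other member's probe was 44.9%, and its longest shared run was 7 bases, with a FABP5 probe. Probes were not compared with the transcripts of other members, so binding to those was not tested. The FABP3 and FABP7 probes were closer, with 42 of 58 bases identical (72.4%) and a longest shared run of 10 bases, yet FABP3 was bright and FABP7 was not above background on any array. All 7 members have a gene of the same symbol in the green monkey RefSeq annotation (mChlSab1.0.hap1).

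Levels are given as the log2 of the processed signal minus the log2 of that array's 75th percentile, so 0 is the 75th percentile of the array, and the scanner's own flag says whether a spot was well above background. Levels of different probes are not compared with each other. The percentage of spots well above background ran from 61.6% to 79.8% of an array, highest on S154A_DMSO_1, and the 75th percentile of the signal from 1234 to 2107. No spot of a member was saturated. NR1H4, the gene of FXR, was detected on 12 of 12 arrays and averaged 7.56 ± 0.13 in S154D cells with CDCA, 7.77 ± 0.27 in S154D cells with DMSO, 7.59 ± 0.13 in S154A cells with CDCA and 7.74 ± 0.16 in S154A cells with DMSO (SD, n = 3 each). That level may include both the transfected construct and the cells' own transcript, which were not separated. Of 10 kidney and fibroblast markers 8 were well above background on all 12 arrays. COL1A2, which encodes a chain of type I collagen, was on none.

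Of the 7 members, FABP3 and FABP5 were well above background on 12 of 12 arrays with every probe, FABP6 on 9, FABP4 on 1, and FABP1, FABP2 and FABP7 on 0. A gene was tested where the 3 arrays of some group all had a probe of it well above background, which kept 7 of the 11 probes and 3 of the 7 genes: FABP6, FABP3 and FABP5. FABP6 passed through the S154A groups, where it was on all 6 arrays, and was well above background on 2 of 3 arrays of S154D cells with CDCA and on 1 of 3 with DMSO. Across the array 20355 genes were tested.

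**Figure D1:**
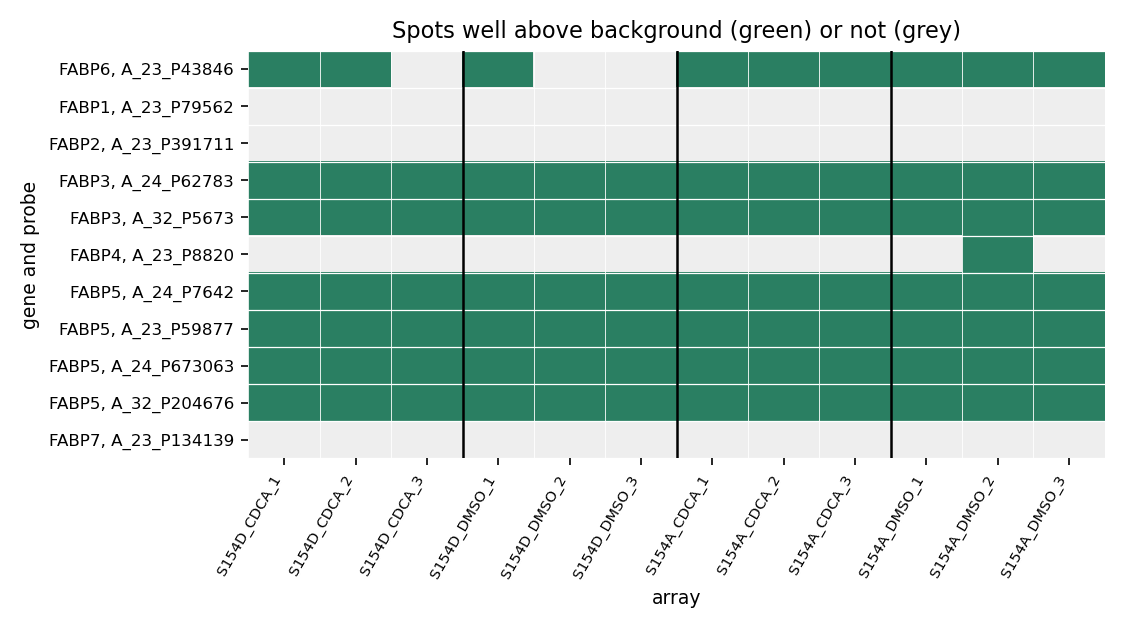
Each row is one of the 11 probes and each column one array, in the order S154D with CDCA, S154D with DMSO, S154A with CDCA and S154A with DMSO, separated by black lines. Green marks a spot well above background and grey one that is not. FABP6 is green on 9 of 12 arrays, the FABP3 and FABP5 probes on 12 of 12, FABP4 on 1, and FABP1, FABP2 and FABP7 on 0.

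FABP6, the bile acid carrier of the family, rose 135-fold with CDCA in S154A cells. In S154D cells its change with CDCA was not called, and under CDCA it was far lower in S154D than in S154A cells. Its 3 arrays of S154D cells with CDCA stood at -4.75, -6.02 and -7.20 (signals of 73.2, 19.0 and 13.3), and those of S154D cells with DMSO at -6.16, -6.00 and -6.29 (signals of 22.3, 24.6 and 16.5). The 3 arrays of S154A cells with CDCA stood at 2.58, 2.53 and 2.45 (signals of 7832, 10765 and 9794), against -3.48, -4.89 and -5.31 in S154A cells with DMSO (signals of 189, 52.9 and 40.9). All 3 arrays of S154A cells with CDCA therefore lay far above the other 9. Its spots were well above background on 2 of 3 arrays of S154D cells with CDCA, 1 of 3 with DMSO, and on all arrays of S154A cells.

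By group, FABP6 averaged -5.99 ± 1.22 in S154D cells with CDCA, -6.15 ± 0.14 in S154D cells with DMSO, 2.52 ± 0.07 in S154A cells with CDCA and -4.56 ± 0.96 in S154A cells with DMSO (SD, n = 3 each). From high to low the groups ran S154A with CDCA, S154A with DMSO, S154D with CDCA and S154D with DMSO. S154A with DMSO and S154D with CDCA overlapped, since S154D_CDCA_1 at -4.75 was above 2 of the 3 arrays of S154A cells with DMSO, and the S154D groups overlapped as well. In S154A cells the SD was 0.07 with CDCA and 0.96 with DMSO, where S154A_DMSO_1 stood above the other arrays of the group.

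**Figure D2:**
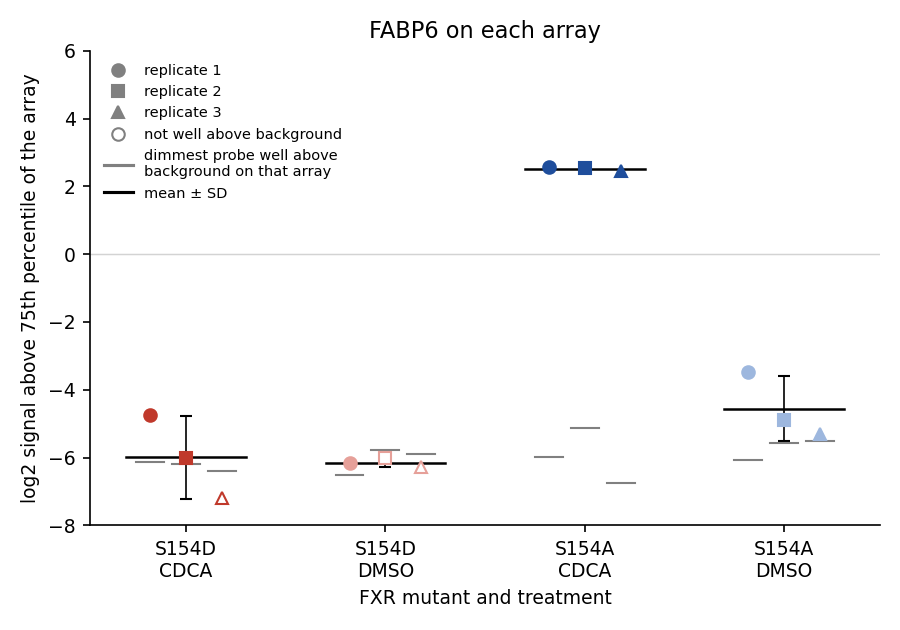
FABP6 on each of the 12 arrays, as log2 signal above the array's 75th percentile (vertical axis), by FXR mutant and treatment (horizontal axis). Symbols are replicates, open where the spot was not well above background, black lines are the mean ± SD of 3 arrays, and grey dashes are the dimmest probe well above background on that array. S154A cells with CDCA lie between 2.45 and 2.58, and the other 9 arrays between -7.20 and -3.48.

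The first comparison asked what CDCA did to FABP6 in S154A cells. The log2 change, CDCA minus DMSO, was 7.08 ± 0.57 (SE), with a 95% interval of 5.82 to 8.34, or 56.5-fold to 324-fold, and an adjusted p of 0.000621 by limma with Benjamini-Hochberg adjustment over the 20355 genes. It ranked 5 among all genes by the size of its moderated t. In this comparison 27 genes, 0.133% of those tested, passed the threshold of 0.05. The arrays of both groups did not overlap, which was so for 11.9% of genes, and the exact permutation test over the 6 arrays gave p = 0.1 (two-sided), the smallest that 3 against 3 arrays can give. On the slides that held both groups the change was 5.92 on slide 1 and 7.89 on slide 3, with 1 array against 1 on each. With normexp background correction the change was 6.04, or 65.7-fold. S154A_DMSO_1, the array with the most spots well above background, was the highest of its group, and without it the change was 7.62.

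In S154D cells the change with CDCA was 0.16 ± 0.57, with an interval of -1.10 to 1.42 and an adjusted p of 0.879, and was not called. The upper bound of that interval lies below the lower bound in S154A cells. In this comparison 2073 genes, 10.2% of those tested, were called. The group was uneven, with S154D_CDCA_1 at -4.75 and S154D_CDCA_3 at -7.20, which was not well above background, and both of these arrays came from slide 2. Without S154D_CDCA_1 the change was -0.46, and with normexp background correction it was -0.067, so its sign was not settled. On slide 3, which held both groups, it was 0.27, with 1 array against 1 and the DMSO spot not well above background.

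The difference between the responses, S154D minus S154A, was -6.92 ± 0.80 log2 units, with an interval of -8.70 to -5.14. Its S154D side rests on spots well above background on 2 of 3 arrays with CDCA and 1 of 3 with DMSO, and with dim values raised to each array's own limit, the signal of its dimmest detected probe, the difference was -6.86. It was called (adjusted p = 0.0209, limma), as were 30 genes, 0.147% of those tested, and FABP6 ranked 4 by moderated t. The adjusted p moved past the threshold under 12 of 23 alternatives, while the value lay between -7.54 and -6.10 in all 23. It was -6.35 with slide as a block (adjusted p = 0.297), -6.92 with no filter on dim probes (adjusted p = 0.0869), -6.78 without slide 2 (adjusted p = 0.0574) and -6.84 without slide 4 (adjusted p = 0.063). It also missed the threshold in 8 of the 12 fits that left out 1 array, with adjusted p up to 0.103: those without S154D_CDCA 2 or 3, any S154D_DMSO array, S154A_CDCA 3, or S154A_DMSO 2 or 3. Their values lay between -6.99 and -6.32.

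Under CDCA, FABP6 was lower in S154D than in S154A cells, with a change of -8.51 ± 0.57 log2 units (interval -9.77 to -7.25). On the measured means that is a 365-fold difference, with an adjusted p of 0.000194 by limma and rank 2 among all genes by moderated t. The S154D mean includes S154D_CDCA_3, which was not well above background, and with dim values raised in the same way the change was -8.24. In this comparison 82 genes, 0.403%, were called, and the arrays of both groups did not overlap for 28.6% of genes, FABP6 among them. The comparison shares the S154A arrays with CDCA with the first one, so the 2 values are not separate evidence. The value was -8.60 on slide 3, which held both groups. With slide as a block it was -8.11 and the adjusted p was 0.0513, just past the threshold, and with normexp it was -6.70, or 104-fold.

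Under DMSO, FABP6 in S154D cells was below every S154A array, with a change of -1.59 ± 0.57 (interval -2.85 to -0.33). The arrays did not overlap, as for 11% of genes, and the unadjusted p was 0.0183, but the adjusted p was 0.996 by limma and the difference was not called. In this comparison 0 genes (0%) were called and 884 had an unadjusted p under 0.05. The value was -2.68 on slide 1 and -0.98 on slide 3, -1.05 without S154A_DMSO_1, and -0.59 with normexp. The spot was well above background on 1 of 3 S154D arrays and 3 of 3 S154A arrays.

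**Figure D3:**
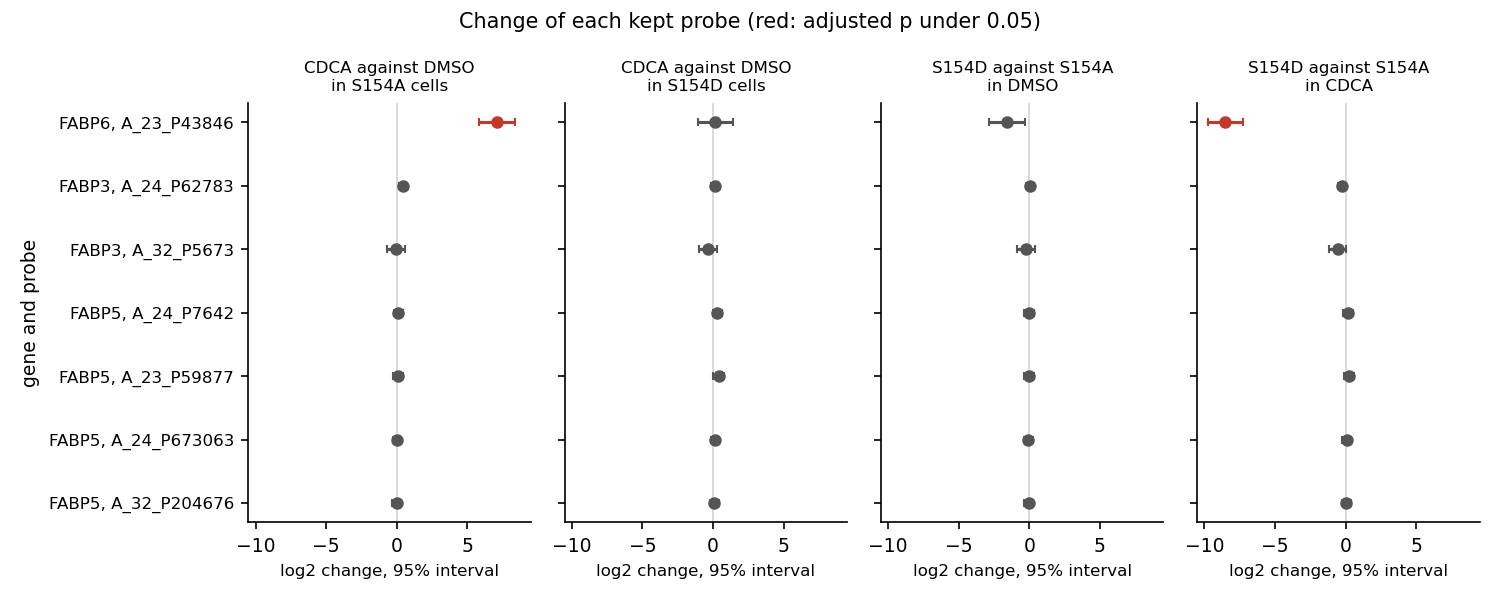
Log2 change (points) with its 95% interval (bars) of each of the 7 probes kept, in the 4 pairwise comparisons, with a change above 0 meaning higher with CDCA or in S154D cells. Red marks an adjusted p under 0.05 when all kept probes are tested. FABP6 is red in S154A cells at 7.08 and under CDCA at -8.51, and the 6 FABP3 and FABP5 probes are grey in all 4 panels.

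FABP3, the heart and muscle protein, was bright in all groups and moved little. Its main probe stood at 3.59, 3.73 and 3.69 in S154D cells with CDCA, against 3.58, 3.59 and 3.47 in S154D cells with DMSO. In S154A cells it stood at 4.12, 3.80 and 3.93 with CDCA, against 3.53, 3.65 and 3.29 with DMSO. The arrays did not overlap between treatments in either mutant, which was so for 33.6% of genes in S154D cells and 11.9% in S154A cells, and S154A cells with CDCA were the highest group, at 3.95 ± 0.16 (SD, n = 3), as for FABP6.

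The log2 change of FABP3 with CDCA in S154A cells was 0.46 ± 0.12 (interval 0.19 to 0.73, or 1.38-fold). The unadjusted p was 0.00314 and the adjusted p 0.470 by limma, and it was not called. Within slides the change was 0.41 on slide 1 and 0.83 on slide 3. In S154D cells it was 0.13 ± 0.12 (adjusted p = 0.513).

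Between the mutants FABP3 differed by -0.28 ± 0.12 under CDCA (S154D minus S154A, interval -0.55 to -0.01, adjusted p = 0.198) and by 0.06 ± 0.12 under DMSO (adjusted p = 0.999). The difference between its responses was -0.34 ± 0.17 (adjusted p = 0.273). None of these was called by limma, with the settings described or under any alternative run.

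A second probe named FABP3 behaved differently. It was designed on the expressed sequence tag BG336702, lies at chr1:31511618-31511677 on the plus strand, opposite to the strand of the main FABP3 probe, and cannot be counted as a second measure of the FABP3 transcript. It was dim, between -4.93 and -3.62 over the 12 arrays, though well above background on all of them. Its change was -0.36 ± 0.28 with CDCA in S154D cells and -0.05 ± 0.28 in S154A cells, and -0.57 ± 0.28 between the mutants under CDCA (adjusted p = 0.253 by limma over all kept probes). S154D_CDCA_1 was its lowest array, at -4.93, and S154D_CDCA_3 stood at -3.73, the highest of that group by far.

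FABP5, the epidermal protein, has 4 probes, all well above background on 12 of 12 arrays. Its brightest probe stood at 3.18, 3.49 and 3.72 in S154D cells with CDCA, against 3.20, 3.10 and 3.15 in S154D cells with DMSO. In S154A cells it stood at 3.41, 3.37 and 3.09 with CDCA, against 3.00, 3.20 and 3.33 with DMSO. The groups overlapped in both mutants, and the highest array of all was S154D_CDCA_3.

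The change of FABP5 with CDCA was 0.31 ± 0.15 in S154D cells (interval -0.02 to 0.65, adjusted p = 0.198) and 0.11 ± 0.15 in S154A cells (adjusted p = 0.946), and neither was called by limma. The other 3 probes changed by 0.39, 0.14 and 0.09 in S154D cells and by 0.09, 0.01 and 0.01 in S154A cells, and none of them was called. The 2 brightest probes, A_24_P7642 and A_23_P59877, have the same coordinates and differ at 3 of 60 bases, so they are close copies of one measurement. On all 4 probes S154D_CDCA_3 was the highest and S154D_CDCA_1 the lowest of that group, the reverse of the order of those 2 arrays for FABP6.

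The differences of FABP5 between the mutants were not called either, at 0.18 ± 0.15 under CDCA (adjusted p = 0.4998) and -0.02 ± 0.15 under DMSO (adjusted p = 0.999). The difference between the responses was 0.20 ± 0.21 (adjusted p = 0.612). Beside FABP6, 0 of the 2 tested paralogues were called in any of the 5 comparisons, under limma and every alternative run. Of all genes 0.133%, 10.2%, 0%, 0.403% and 0.147% were called in these comparisons, so 0 of 2 does not set the paralogues apart.

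**Figure D4:**
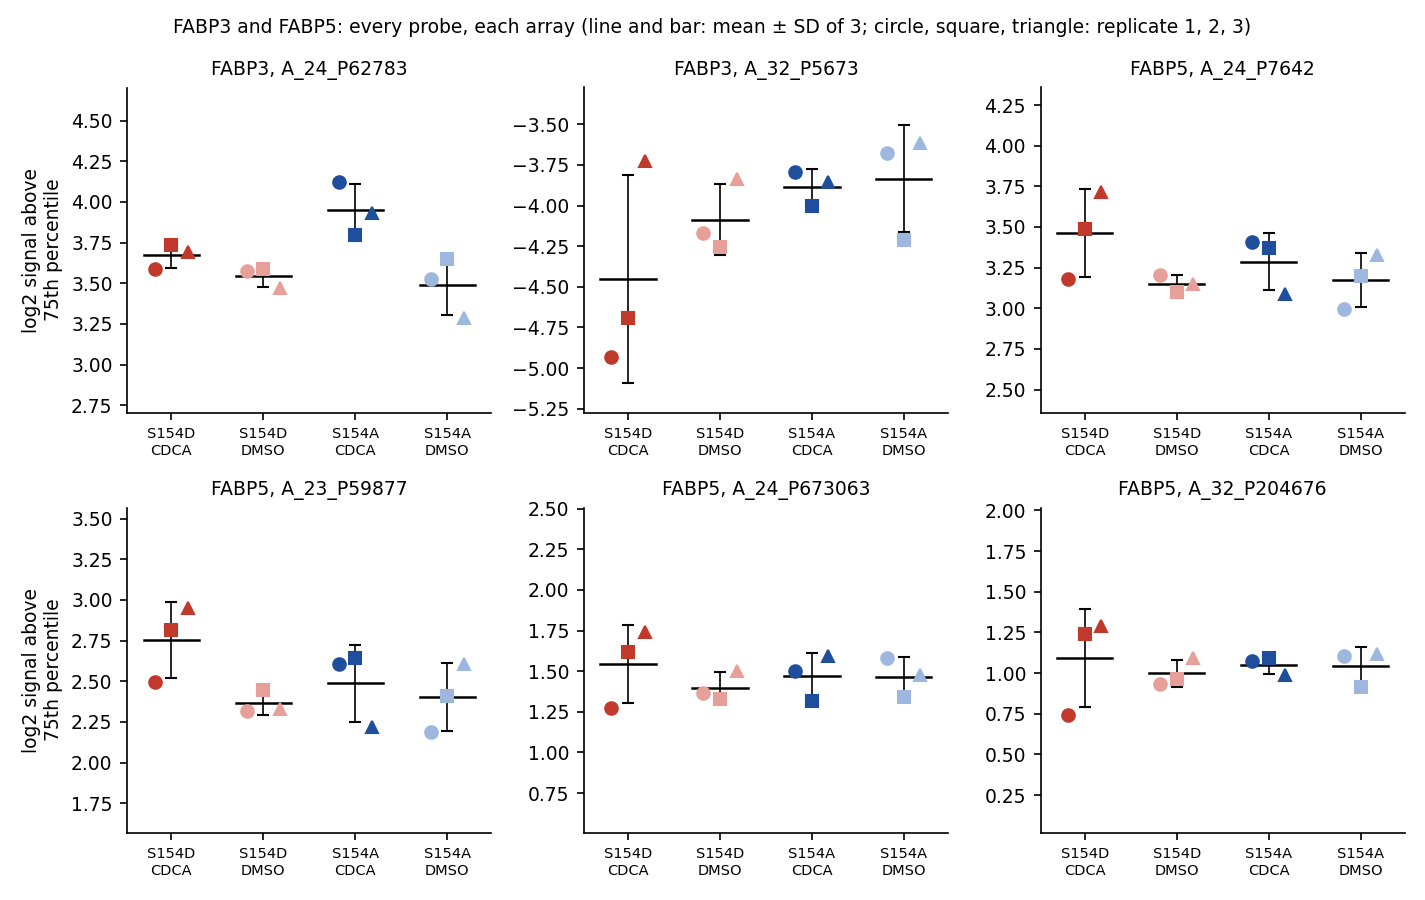
The 2 FABP3 and 4 FABP5 probes, each panel with its own range but the same height of 2 log2 units, by FXR mutant and treatment. The vertical axis is the log2 signal above the array's 75th percentile, symbols are replicates 1 to 3, and lines and bars are the mean ± SD of 3 arrays. The main FABP3 probe is highest in S154A cells with CDCA at 3.95 ± 0.16, and the FABP5 probes spread most in S154D cells with CDCA.

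The liver, intestinal, adipocyte and brain members gave no level that could be compared. FABP1 had signals between 5.44 and 42.3 over the 12 arrays, FABP2 between 3.82 and 13.9, and FABP7 between 4.07 and 28.2, and none was well above background on any array. FABP4 lay between 3.70 and 72.6, and the single array well above background was S154A_DMSO_2, at 72.6. The extraction software had replaced the signal by a surrogate value on 5 arrays for FABP1, 12 for FABP2, 5 for FABP4 and 8 for FABP7. The highest FABP1 and FABP7 signals, 42.3 and 28.2, were both on S154A_DMSO_1. With human probes on monkey RNA, a transcript that is not there and one that the probe does not bind cannot be told apart here.

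The genes that work beside FABP6 in bile acid handling were counted next. Of 15 genes of bile acid transport and FXR feedback 7 could be tested, and with CDCA in S154A cells 2 rose and 0 fell, against 0.133% called of all genes; their median change was 0.06 and that of all genes -0.04. The 2 were OSTalpha, a subunit of the exporter that passes bile acids out of the cell after FABP6 has carried them across it, which rose by 2.55 ± 0.18 (adjusted p = 0.000245), and FGF19, the ileal hormone that lowers bile acid synthesis in liver. FGF19 was detected with CDCA on 3 of 3 arrays and with DMSO on 0 of 3, which makes the rise at least 23.9-fold. It was called (adjusted p = 0.0120, limma), and the call was kept under 16 of 23 alternatives. FGF19 entered the test through S154A cells with CDCA, the group where it was high. Its call and its place among the 2 are therefore not separate support. The list was chosen with earlier results of these data known, so the count of 2 is not separate support either. OSTbeta, the partner of OSTalpha, changed by 1.70 ± 0.69 (adjusted p = 0.820, limma). Its probe was well above background on only 5 of the 12 arrays, so that change rests partly on dim spots. SLC10A2, the transporter that brings bile acids into the ileal cell, was well above background on 1 array of 12.

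In S154D cells with CDCA 0 of these 7 were called by limma in either direction, against 10.2% of all genes, and OSTalpha changed by 0.19 ± 0.18. Before adjustment p was under 0.05 for 1 of the 7, against 6102 of the 20355 genes. Under CDCA, OSTalpha was lower in S154D than in S154A cells by limma (change -2.38 ± 0.18, adjusted p = 0.000291), as was FGF19 (adjusted p = 0.0123). The FGF19 call was kept in 18 of 23 alternatives and lost with slide as a block, at an adjusted p of 0.181. Here too FGF19 was tested through the group where it was high. The difference between the responses was called for OSTalpha (-2.36 ± 0.25, adjusted p = 0.0209, kept in 13 of 23 alternatives) and not for FGF19 (adjusted p = 0.0623). In DMSO limma called 0 of 7 and 0 of all genes. Before adjustment p was under 0.05 for 0 of the 7, against 884 of the 20355 genes.

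Among the relatives of the FABPs in the wider family of cytosolic lipid carriers, CRABP2, a retinoic acid carrier, changed by -0.38 ± 0.17 with CDCA in S154A cells and RBP5, a retinol carrier, by -0.25 ± 0.11, and neither was called by limma. In S154D cells, where 10.2% of all genes were called, RBP5 fell by 0.42 on the log2 scale (SE 0.11, adjusted p = 0.0420), while CRABP2 changed by 0.23 ± 0.17 and RBP7 by 0.48 ± 0.24, neither of them called. RBP2 was well above background on 0 arrays and PMP2, the myelin member of the FABP family, on 3, and neither was tested.

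Genes that bring fatty acids into cells and activate them, and the PPARs with their targets, which also bind fatty acids, were not called with CDCA in S154A cells. By limma 0 of 13 and 0 of 18 tested were called, where 0.133% of all genes were. In either list 0 had an unadjusted p under 0.05, against 1230 of the 20355 genes. These counts do not set the lists apart. In S154D cells 1 uptake gene rose, ACSL3, an acyl-CoA synthetase (0.56 ± 0.16, adjusted p = 0.0485), and 1 fell, SLC27A4, a fatty acid transporter (-0.60 ± 0.17, adjusted p = 0.0480). Of the PPAR targets ACADM, the medium-chain acyl-CoA dehydrogenase (0.54 ± 0.13, adjusted p = 0.0347), and ADFP, a lipid droplet coat protein (0.34 ± 0.09, adjusted p = 0.0452), rose and 0 fell. Of 14 tested transcription factors known to act on FABP genes, RXRB, a partner of FXR, fell (-0.78 ± 0.21, adjusted p = 0.0460 by limma). In that list 2 of 14 changes were above 0 and the median was -0.21, against -0.01 for all genes. With CDCA in S154A cells 9 of 14 were above 0, with a median of 0.06 against -0.04. The list includes NR1H4, the gene of the transfected FXR. The shift of the list as a whole was not tested.

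These calls in S154D cells were lost under most alternatives, except that ACADM kept its call in 12 of 24. Shares of 2 in 13, 2 in 18 and 1 in 14 stand beside 10.2% of all genes, and by limma with slide as a block, or with a correction for probe GC content, 0 genes of the array were called in that comparison, while 4508 and 3760 had an unadjusted p under 0.05. Over 24 alternatives ACSL3 was called in 8, RBP5, SLC27A4 and RXRB in 5 each, and ADFP in 4. With slide as a block their adjusted p lay between 0.138 and 0.279.

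The genes whose levels most resembled FABP6 over the 12 arrays were, by Pearson correlation, RBP4 (0.981), MYOM2 (0.970), LRRC38 (0.967), OSTalpha (0.965), PPP1R1A (0.965) and FETUB (0.962). RBP4 is the plasma carrier of retinol, MYOM2 a protein of the muscle sarcomere, LRRC38 a regulatory subunit of potassium channels, PPP1R1A an inhibitor of protein phosphatase 1 and FETUB the plasma protein fetuin-B. All 6 were well above background on 12 of 12 arrays. The 3 arrays of S154A cells with CDCA stood apart and raised the correlations. Over the other 9 arrays the correlations were 0.63, 0.54, 0.81, 0.26, 0.48 and 0.39 in the same order. They describe mainly the shared rise, less so for LRRC38 and RBP4, and are given with no p. Among those 9 arrays the FABP6 spot was not well above background on S154D_DMSO_2, S154D_DMSO_3 and S154D_CDCA_3. The correlations over the 9 therefore rest partly on dim spots.

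RBP4 stood at -0.48, -0.86 and -0.85 in S154D cells with CDCA, against -1.05, -0.84 and -1.07 in S154D cells with DMSO. In S154A cells it stood at 1.64, 1.70 and 1.54 with CDCA, against -0.66, -0.33 and -0.76 with DMSO. As with FABP6, the 3 arrays of S154A cells with CDCA lay above the other 9, and RBP4 was well above background on all 12. Among the paralogues the correlation with FABP6 was 0.735 for FABP3 and -0.10 for FABP5, over all 12 arrays with S154A cells with CDCA included.

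**Figure D5:**
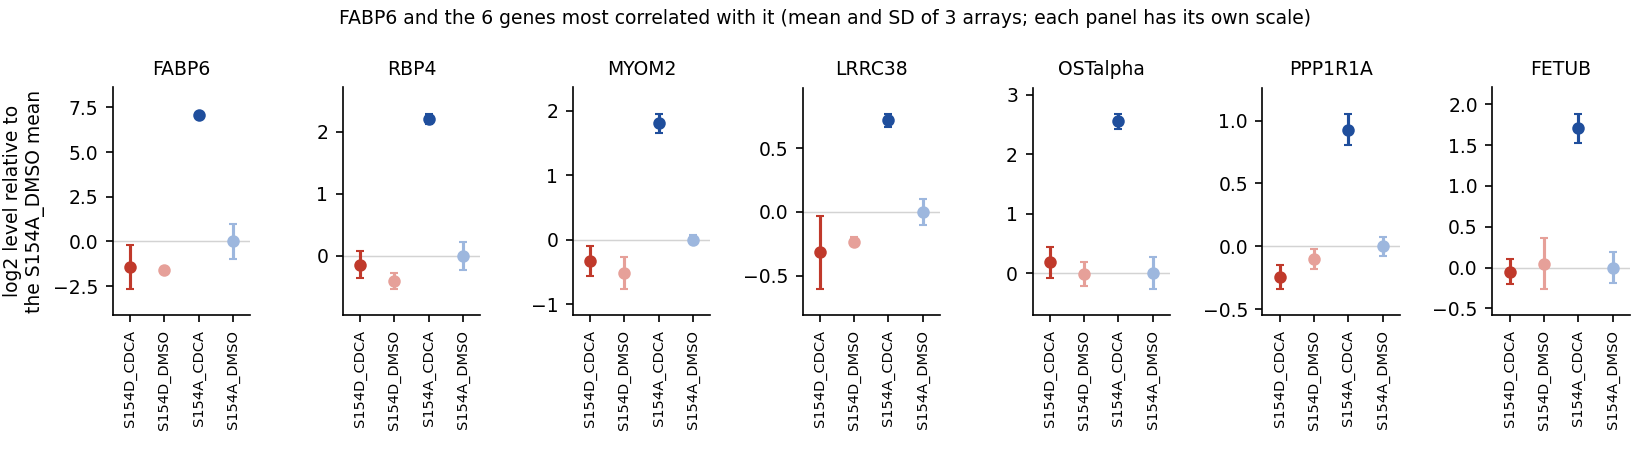
FABP6 and the 6 genes most correlated with it, as the mean log2 level relative to the mean of S154A cells with DMSO (vertical axis, a different scale in each panel) with the SD of 3 arrays, by group. In all 7 panels S154A cells with CDCA are the highest group, and the rise is largest for FABP6.

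FABP6 is a gene of ileal cells, and markers of several cell types were summed on each array, as multiples of its 75th percentile. The 9 enterocyte markers summed to 0.732 to 0.973 in S154D cells with CDCA, 0.929 to 1.06 in S154D cells with DMSO, 0.904 to 1.14 in S154A cells with CDCA and 0.928 to 1.11 in S154A cells with DMSO, and S154A cells with CDCA overlapped with both DMSO groups and with S154D cells given CDCA. Of the 9 enterocyte markers 4 were well above background on all 12 arrays, among them CDX2 and CDH17, and 1 was on 0, SI, the brush border sucrase. The 4 macrophage markers summed to 0.942 to 1.05 in S154A cells with CDCA, against 0.597 to 0.786 in S154A cells with DMSO. In S154D cells they summed to 0.670 to 0.766 with CDCA and 0.740 to 0.865 with DMSO. The 4 adipocyte markers summed to 0.656 to 0.793 in S154A cells with CDCA, against 0.557 to 0.644 with DMSO. Both S154D groups overlapped the former, at 0.492 to 0.886 with CDCA and 0.644 to 0.712 with DMSO. Of the 4 macrophage markers 3 were well above background on all 12 arrays (CD14, CD68 and CSF1R), and PTPRC, the common leukocyte antigen, was on 0. With CDCA in S154A cells limma called 0 macrophage and 0 adipocyte markers. Of each of these 2 lists 1 had an unadjusted p under 0.05, as had 2 of the 3 muscle markers tested, also not called, and 1230 of the 20355 genes. The part of these markers in the FABP6 result was not tested.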

How the data were processed

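Signal intensities were read from the deposited scanner files, made with Agilent Feature Extraction 9.5.3.1 per the file headers (the submitters' processing notes name version 12). The software had subtracted background and set dim spots to surrogate values. The deposited series table holds the same intensities. The column used was the processed signal, an intensity per spot, after removal of control spots and flagged outliers. Spots of one probe were averaged, log2 values were centred on each array's 75th percentile, and probes not well above background on all 3 arrays of any group were left out, with the brightest probe standing for a gene. limma 3.58.1 in R 4.3.3 fitted one mean per group over all 12 arrays, and p-values were adjusted over 20355 genes by Benjamini-Hochberg (threshold 0.05). The steps were tested on simulated data.

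The members, the 5 gene lists and the marker lists were chosen with earlier results of these data known. Counts over the list of cytosolic lipid-binding relatives are not reported here. Named were all members, the 6 genes most correlated with FABP6, and up to 4 members of each list with the smallest p. Slide positions come from the files. Alternatives covered background correction, normalisation, filters, slide, probe GC content, replicate block and each array left out. Replicate numbers were not used to pair samples: 5 of 12 same-numbered pairs correlated above 0.1, which does not settle whether they pair. The number of arrays limits the precision.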

Additional observations from a re-analysis of the deposited data

Results flagged for a closer look

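The response of FABP6 to CDCA differed between the mutants, with a difference of -6.92 log2 units (S154D minus S154A, SE 0.80, adjusted p = 0.0209 by limma). The change was 0.16 in S154D cells and 7.08 in S154A cells. On slide 3, with 1 array against 1, it was 0.27 in S154D cells and 7.89 in S154A cells. The spot of S154D_DMSO_3 on that slide, at -6.29, was not well above background, so the sign in S154D cells was not settled. The difference between the responses was tested directly, by the interaction contrast.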

How the results depend on the processing

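The rise of FABP6 with CDCA in S154A cells was called under all 24 alternatives that tested it. Adjusted p lay between 1.03e-07 and 0.0498, and the change between 6.04 and 7.62, apart from 5.92 within slide 1 and 7.89 within slide 3, each 1 array against 1. With probes required on all 12 arrays FABP6 was not tested. Leaving out 1 array gave 6.70 to 7.62 in S154A cells, -0.46 to 0.76 in S154D cells, -9.13 to -7.91 between the mutants under CDCA, -1.97 to -1.05 under DMSO and -7.54 to -6.32 for the difference between the responses, where 4 of 12 were called. In S154D cells the change turned to -0.067 with normexp and to -0.46 without S154D_CDCA 1. The cause was not tested. Under DMSO it was -2.68 within slide 1. Under CDCA it missed the threshold with slide as a block (-8.11, adjusted p = 0.0513). The difference between the responses was -7.62 within slide 3, and missed the threshold at -6.92 with no filter, -6.35 with slide as a block, -6.78 without slide 2 and -6.84 without slide 4. With the replicate block, values were 7.08, 0.16, -1.59, -8.51 and -6.92 and no FABP6 call changed. Whether the numbers pair the arrays is not settled, with correlations of same-numbered pairs from -0.23 to 0.36. Over all genes the counts of calls ranged from 7 to 33 (S154A with CDCA), 0 to 3129 (S154D with CDCA), 0 to 1 (DMSO), 3 to 271 (CDCA) and 0 to 122 (difference), against 27, 2073, 0, 82 and 30. With the replicate block they were 22, 0, 0, 53 and 6. Without scaling the arrays the median change of all genes was -0.14, 0.18, -0.24, 0.10 and 0.32. Signal over background limits FABP6 in both S154D groups and leaves 4 members without a level.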
